A study of Homo sapiens with 6 samples.

Results

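The genes described here are 7 transporters of the ATP-binding cassette (ABC) family that carry drugs out of cells, *ABCB1*, *ABCC1*, *ABCC2*, *ABCC3*, *ABCC4*, *ABCC5* and *ABCG2*. They were chosen by symbol among the 60651 genes of the deposited tables, several of them because of earlier links to MYCN in neuroblastoma, and each symbol matched 1 gene identifier. They are 7 of the 48 ABC family genes that were looked up. Total RNA, depleted of ribosomal RNA, had been sequenced from 6 samples of human neuroblastoma cells, of which 3 carried EtOH and 3 Tet in their titles. The titles named IMR-5/75, a *MYCN*-amplified line, and a tag called the EtOH libraries the control and the Tet libraries the induction of a knockdown. The protocol text instead described single clones of SK-N-SH cells that carry a tetracycline repressor and a tetracycline-inducible *MYCN* construct, all kept under G418 and blasticidin, with tetracycline given for 5 days to induce *MYCN*. The study's methods describe an IMR-5/75 line with an inducible shRNA against *MYCN*, kept under zeocin and blasticidin, and a *MYCN* expression line made from other cells. Groups were therefore taken from the titles, and every direction below compares the labels Tet and EtOH.

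ABC transporters bind ATP in a pair of cytoplasmic domains and use its hydrolysis to move substrates across a membrane. P-glycoprotein, the product of *ABCB1*, exports large hydrophobic drugs such as vincristine, doxorubicin and etoposide, all of which are used in neuroblastoma. The multidrug resistance-associated proteins of the C subfamily export organic anions, many of them conjugated to glutathione or glucuronic acid, and *ABCG2* encodes the breast cancer resistance protein, which exports topoisomerase poisons such as topotecan. *ABCC1* and *ABCC4* have been linked to poor outcome and to MYCN in neuroblastoma, and MYCN binds the E-box sequence CACGTG together with its partner MAX.

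Upstream sequence was examined because these genes are discussed as MYCN targets. RefSeq start sites on GRCh38.p14 gave 10 windows of 250 bases before a start site for 5 of the 7 genes, and *ABCC1* and *ABCC3* had no entry. The windows below belong to the genes whose libraries separated by label (*ABCB1* and *ABCC4*), to the other abundant member (*ABCC5*) and to the gene whose windows held an E-box (*ABCG2*). They run 5′ to 3′ on the minus strand, which is the coding strand of all 4 genes, and capitals mark 3 short motifs, each searched on both strands. The E-box CACGTG reads the same on either strand. The CCAAT box is written CCAAT, or as ATTGG where it lies on the opposite strand. The GC box is written GGGCGG, or as CCGCCC on the opposite strand.
*ABCB1*, chr7:87600885-87601134: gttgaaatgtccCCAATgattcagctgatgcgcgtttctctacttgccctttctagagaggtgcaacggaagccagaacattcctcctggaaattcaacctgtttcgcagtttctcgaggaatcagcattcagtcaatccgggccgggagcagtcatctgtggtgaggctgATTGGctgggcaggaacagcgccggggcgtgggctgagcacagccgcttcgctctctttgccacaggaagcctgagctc
*ABCC4*, chr13:95301452-95301701: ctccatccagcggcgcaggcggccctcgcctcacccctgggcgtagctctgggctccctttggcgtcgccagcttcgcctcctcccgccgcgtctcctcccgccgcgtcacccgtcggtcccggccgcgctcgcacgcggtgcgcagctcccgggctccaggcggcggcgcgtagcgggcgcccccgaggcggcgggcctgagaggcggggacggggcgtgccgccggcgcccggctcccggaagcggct
*ABCC5*, chr3:184017885-184018134: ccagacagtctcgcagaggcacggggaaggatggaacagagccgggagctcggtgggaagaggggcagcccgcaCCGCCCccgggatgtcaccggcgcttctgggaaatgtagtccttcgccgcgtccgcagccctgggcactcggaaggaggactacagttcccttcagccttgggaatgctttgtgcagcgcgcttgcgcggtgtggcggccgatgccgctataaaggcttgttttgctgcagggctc
*ABCG2*, chr4:88158860-88159109: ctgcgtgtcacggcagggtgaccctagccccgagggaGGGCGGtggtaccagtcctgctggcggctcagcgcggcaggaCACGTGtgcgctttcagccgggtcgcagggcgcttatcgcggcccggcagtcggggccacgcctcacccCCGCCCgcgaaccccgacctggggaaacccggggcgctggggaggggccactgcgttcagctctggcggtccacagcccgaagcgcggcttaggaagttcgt

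The *ABCB1* window held 2 CCAAT matches, whose first bases lay 238 and 79 bases before the start site, the nearer one on the opposite strand. The *ABCC4* window held none of the 3 motifs and was 80.4% G and C, against a median of 58.0% over all windows. The *ABCC5* window held 1 GC box, 176 bases before the start site. The *ABCG2* window held 1 E-box, 171 bases before the start site, and 2 GC boxes. The same E-box and GC boxes appeared in 1 further *ABCG2* window, which overlaps the first. The remaining windows, 1 of *ABCB1*, 1 of *ABCC2* and 3 of *ABCG2*, held no match. Over 34943 windows of all genes, CACGTG was present in 6.32%, the CCAAT box in 32.0% and the GC box in 42.5%. Other forms of these motifs and bases after the start site were not searched. These matches describe letters in a window, and no binding was measured in these libraries.

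The libraries held between 27933378 and 40498065 counts, so that 3 counts, taken as the detection floor, correspond to between 0.0741 and 0.107 CPM, counts scaled to an equal library total. EtOH replicate 2 and Tet replicate 2 lay at one end of the first principal component, which carried 45.0% of the variance and along which the labels overlapped. The labels were separated on the second component (25.9%). Genes were tested with the quasi-likelihood F test of edgeR, with p-values adjusted by the Benjamini-Hochberg method over all 22443 genes tested and a threshold of 0.05. *MYCN*, the gene the system was built to regulate, was at 157.9, 256.3 and 155.9 CPM in EtOH replicates 1, 2 and 3 and at 196.6, 200.1 and 145.4 CPM in Tet replicates 1, 2 and 3. The groups overlapped, and the log2 fold change of Tet over EtOH was -0.07 (SE 0.23, 95% interval -0.60 to 0.46, edgeR adjusted p = 0.956). A difference in *MYCN* RNA between the labels was thus not detected. The antisense gene *MYCNOS* covers 3.75% of the *MYCN* exon bases, and the counting used no strand.

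The 7 transporter genes differed widely in level. Compared as TPM, a level scaled by exon length and to an equal total in each library, *ABCC4* and *ABCC5* were the most abundant, *ABCB1* and *ABCC1* followed, *ABCC2* was low, and *ABCG2* and *ABCC3* were close to the detection floor. None of the 7 differed between the labels at an adjusted p-value under 0.05 in edgeR. *ABCB1* was higher and *ABCC4* lower in all 3 libraries labelled Tet than in any labelled EtOH, by 1.45-fold and to 0.764 of the EtOH level in the fit, each with an unadjusted p under 0.05.

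**Figure D1:**
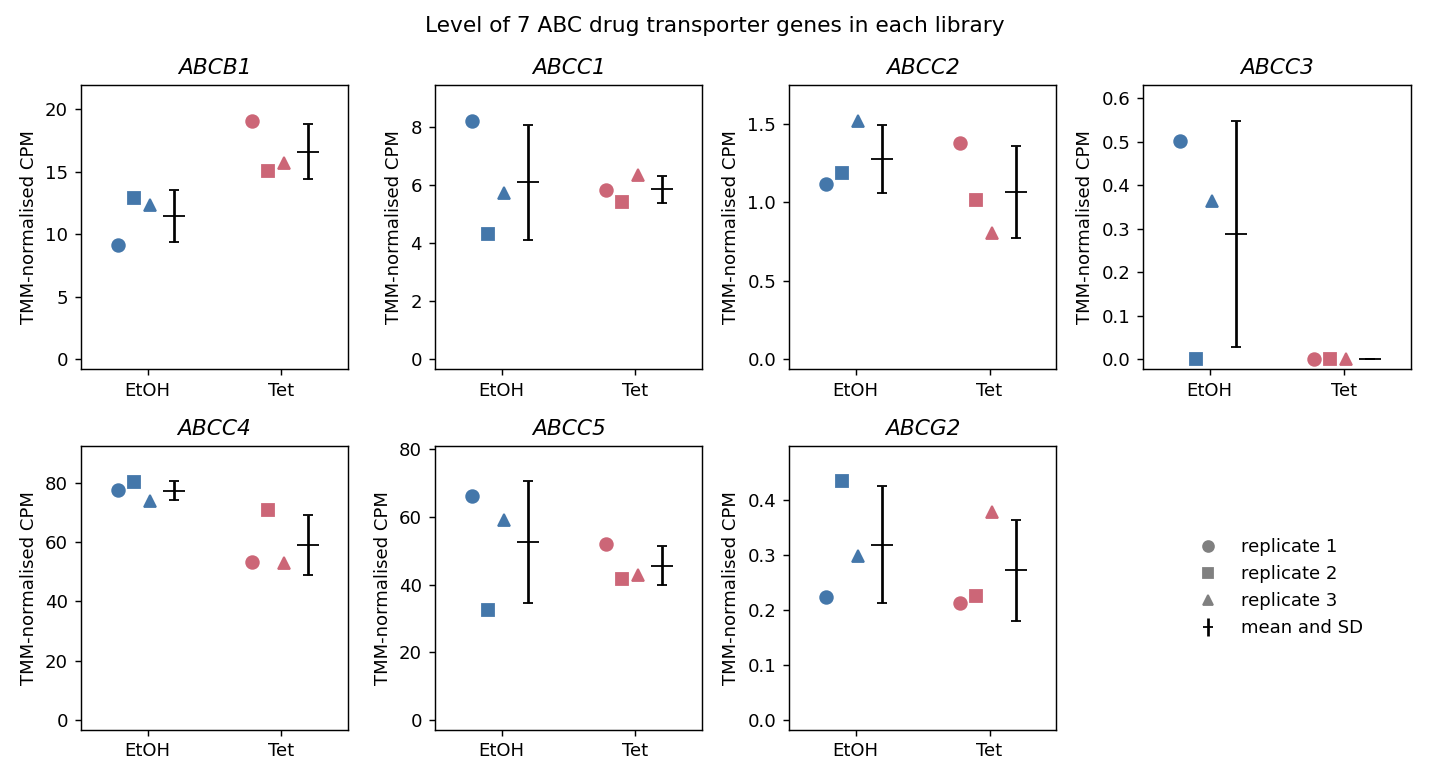
Level of each gene in TMM-normalised CPM (vertical axis, from 0) in the libraries labelled EtOH and Tet (horizontal axis), with replicates as symbols and the mean and SD of 3 libraries in black. For *ABCB1* the Tet points (15.03 to 19.1 CPM) lie above the EtOH points (9.12 to 12.9 CPM), for *ABCC4* they lie below, and *ABCC3* is above 0 in EtOH replicates 1 and 3 only.

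*ABCC4* (ENSG00000125257.16, minus strand of chromosome 13, 95019835 to 95301475) encodes MRP4, an exporter of cyclic nucleotides, prostaglandins and nucleoside analogues. Its TPM averaged 25.0 ± 2.21 under EtOH and 18.3 ± 3.75 under Tet (SD over 3 libraries of each label, as below). *ABCC5* (ENSG00000114770.17, minus strand of chromosome 3, 183919934 to 184017939) encodes MRP5, a related exporter of cyclic nucleotides, and had a mean TPM of 12.8 ± 3.85 and 10.7 ± 1.96. *ABCC4* was above *ABCC5* in 6 of 6 libraries, by a TPM ratio between 1.35 and 3.27. Across libraries the TPM ranges of the pair met, with 14.98 as the lowest value of *ABCC4* and 15.73 as the highest of *ABCC5*.

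*ABCB1* (ENSG00000085563.15, minus strand of chromosome 7, 87503017 to 87713323) averaged 5.00 ± 1.07 TPM under EtOH and 6.91 ± 1.29 TPM under Tet. Its highest TPM, 8.37 in Tet replicate 1, was just under the lowest of *ABCC5*, 8.42 in EtOH replicate 2. *ABCC1* (ENSG00000103222.20, plus strand of chromosome 16, 15949138 to 16143257), which encodes MRP1, an exporter of glutathione conjugates and of drugs together with glutathione, was at 1.93 ± 0.552 and 1.78 ± 0.101 TPM. *ABCB1* was above *ABCC1* in every library, by a TPM ratio between 1.51 and 4.44.

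*ABCC2* (ENSG00000023839.12, plus strand of chromosome 10, 99782640 to 99852594) encodes MRP2, the exporter of conjugated bilirubin at the bile canaliculus, and was at 0.454 ± 0.0720 and 0.367 ± 0.124 TPM. *ABCG2* (ENSG00000118777.12, minus strand of chromosome 4, 88090150 to 88231628) was at 0.160 ± 0.0619 and 0.127 ± 0.0323 TPM. *ABCC3* (ENSG00000108846.16, plus strand of chromosome 17, 50634777 to 50692253) encodes MRP3, a basolateral exporter of conjugates in liver and gut. Its TPM was 0.141 in EtOH replicate 1, 0.103 in EtOH replicate 3 and 0 in the other 4 libraries. The ranges over libraries of *ABCG2* and *ABCC3* overlapped, and those of the other neighbours in this order, from *ABCC5* down to *ABCG2*, did not. None of the exon bases of the 7 genes lay inside exons of another gene, by the exon coordinates of the deposited tables.

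The 7 genes together summed to between 32.4 and 47.0 TPM, of which *ABCC4* and *ABCC5* made up between 73.6% and 85.1%. The sum averaged 45.4 ± 1.48 TPM under EtOH and 38.2 ± 5.02 TPM under Tet. *ABCB1* made up 8.16%, 13.5% and 11.6% of it in EtOH replicates 1, 2 and 3 and 20.3%, 15.6% and 18.4% in Tet replicates 1, 2 and 3. In the 3 Tet libraries the sum was smaller, and *ABCB1* a larger part of it, than in any EtOH library.

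**Figure D2:**
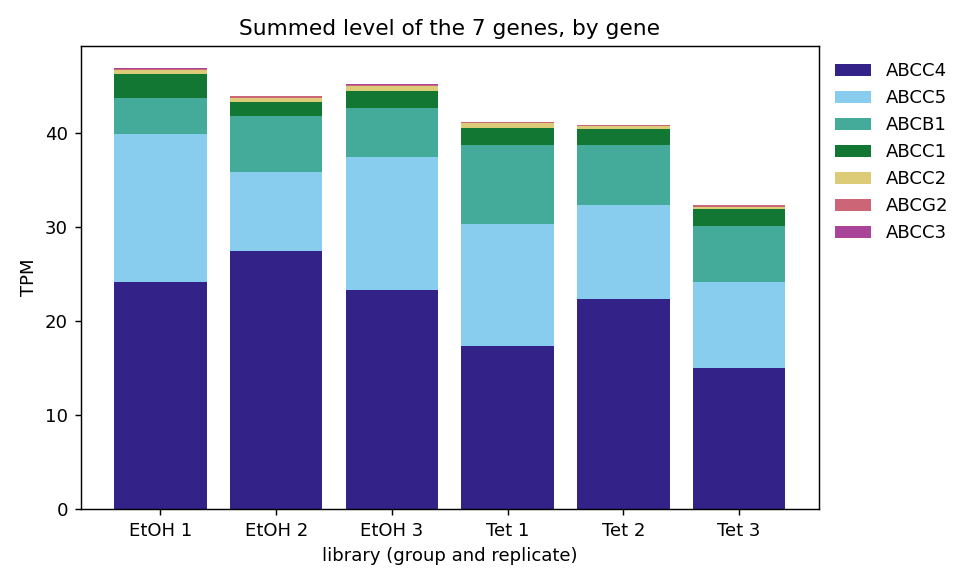
Summed TPM of the 7 genes (vertical axis, from 0) in each of the 6 libraries (horizontal axis), with a colour for each gene. The bars reach between 32.4 and 47.0 TPM, and *ABCC4* with *ABCC5* fills between 73.6% and 85.1% of each bar.

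Within the ABC family, *ABCC4* ranked 6, *ABCC5* 8, *ABCB1* 11, *ABCC1* 18, *ABCC2* 25, *ABCG2* 31 and *ABCC3* 36 of 48 genes by mean TPM. The 3 highest were *ABCE1* (173.7 TPM), a ribosome recycling factor that is no transporter, *ABCA5* (113.0 TPM), and *ABCD3* (61.8 TPM), which takes fatty acyl groups into peroxisomes. The drug transporters took between 6.13% and 10.7% of the summed ABC family TPM of a library, the lowest share being in EtOH replicate 2. *TAP1*, *TAP2*, *ABCA13*, *ABCG1* and *CFTR* were listed at 0 in all 6 libraries.

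**Figure D3:**
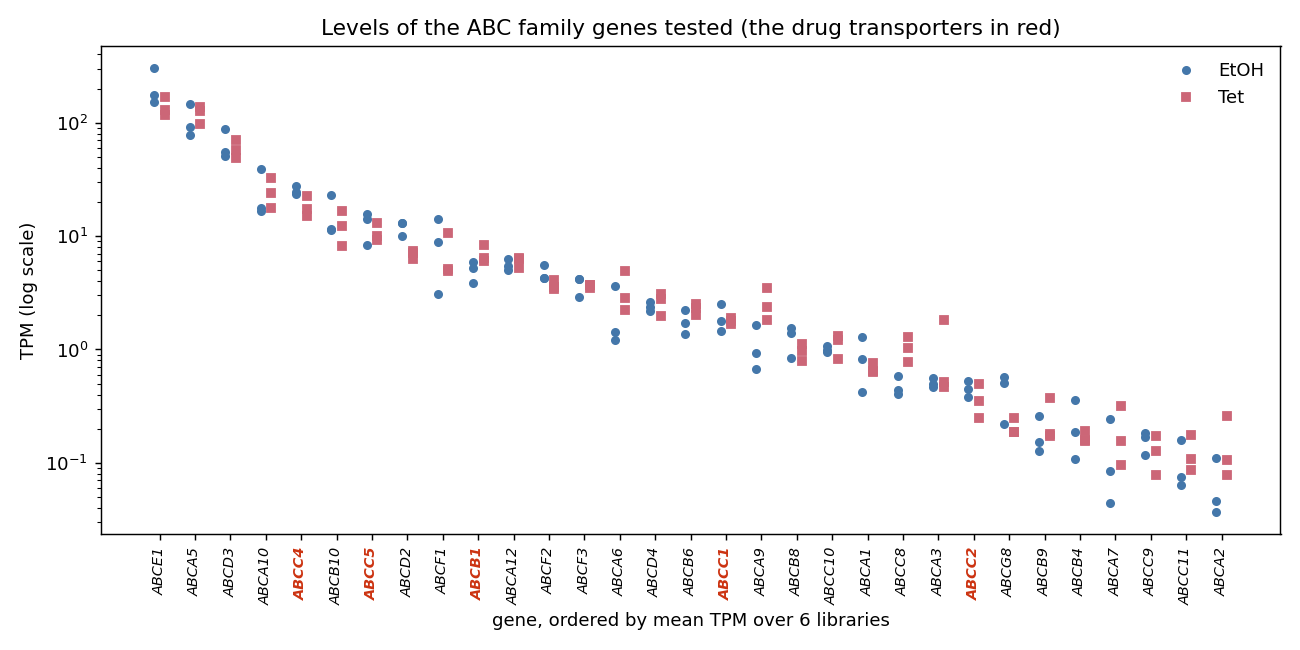
TPM on a log scale (vertical axis) of 31 of the 32 ABC family genes tested (horizontal axis, ordered by mean TPM, drug transporters in red), 1 point for each library by label. *ABCC4* and *ABCC5* lie in the upper part of the family and *ABCC1* and *ABCC2* below, and the points of the 2 labels lie close together beside the range of levels between genes.

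The next comparison asked whether the transporters differed between the labels. Over all genes tested, 0.236% had an adjusted p under 0.05 in edgeR (0.147% higher and 0.0891% lower in Tet), 10.8% an unadjusted p under 0.05 (5.83% higher and 4.94% lower), and 17.5% had groups that did not overlap (9.20% higher and 8.28% lower in Tet). Of the 7 transporters 5 passed the filter on low counts and were tested. Of these, 0 had an adjusted p under 0.05, and 2 had an unadjusted p under 0.05 and groups that did not overlap, 1 in each direction. The median log2 fold change of the 5 was -0.21, beside -0.0061 over all genes tested, and 1 of 5 values was above 0 and 4 below, beside 49.3% and 50.7% of all genes.

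*ABCB1* was at 9.12, 12.9 and 12.4 CPM in EtOH replicates 1, 2 and 3 and at 19.1, 15.03 and 15.7 CPM in Tet replicates 1, 2 and 3. EtOH replicate 1 was the lowest library and Tet replicate 1 the highest, and the groups were separated by the gap between 12.9 and 15.03 CPM. The means were 11.5 ± 2.05 and 16.6 ± 2.16 CPM (SD, n = 3 each), and the log2 fold change was 0.53 (SE 0.21, 95% interval 0.057 to 1.01, edgeR unadjusted p = 0.0322, adjusted p = 0.405). The interval corresponds to a ratio between 1.04 and 2.02. By unadjusted p, *ABCB1* ranked 1782 of the genes tested. The unadjusted p was not under 0.05 in 3 of the 6 edgeR fits that left out 1 library. The log2 fold change was 0.37 without EtOH replicate 1 (edgeR unadjusted p = 0.140), 0.56 without EtOH replicate 3 (edgeR unadjusted p = 0.0718) and 0.42 without Tet replicate 1 (edgeR unadjusted p = 0.138).

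*ABCC4* was at 77.5, 80.3 and 74.0 CPM in EtOH replicates 1, 2 and 3, which lay close together, and at 53.3, 70.8 and 53.0 CPM in Tet replicates 1, 2 and 3. Tet replicate 2 was near the EtOH libraries and the other Tet libraries lay apart from them. The means were 77.3 ± 3.19 and 59.0 ± 10.2 CPM (SD, n = 3 each), and the log2 fold change was -0.39 (SE 0.16, 95% interval -0.76 to -0.015, edgeR unadjusted p = 0.0434, adjusted p = 0.442). In TPM the groups did not overlap either. The unadjusted p was not under 0.05 in 5 of the 6 edgeR fits that left out 1 library (0.0578 to 0.178, all but that without Tet replicate 2), with RLE scaling (0.0527) or in DESeq2 (0.0879). With EtOH replicate 2 and Tet replicate 2 both left out, a choice made after seeing the data, the log2 fold change was -0.51 and passed the threshold (edgeR adjusted p = 0.0465, beside 0.149 to 0.839 over the 14 other settings tried). In that fit 874 genes passed the threshold among 23156 tested, against 53 with all 6 libraries.

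*ABCC5* was at 66.3, 32.4 and 59.2 CPM in EtOH replicates 1, 2 and 3 and at 52.1, 41.8 and 43.0 CPM in Tet replicates 1, 2 and 3. EtOH replicate 2 held the lowest value of all 6 libraries and EtOH replicate 1 the highest, so the Tet libraries lay inside the EtOH range. The log2 fold change was -0.21 (SE 0.26, 95% interval -0.80 to 0.38, edgeR adjusted p = 0.855). It was -0.45 without EtOH replicate 2 (edgeR unadjusted p = 0.0137, adjusted p = 0.133) and -0.023 without EtOH replicate 1, so that its size rested on these 2 libraries.

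*ABCC1* was at 8.23, 4.33 and 5.75 CPM in EtOH replicates 1, 2 and 3 and at 5.85, 5.42 and 6.34 CPM in Tet replicates 1, 2 and 3. As for *ABCC5*, EtOH replicate 1 was the highest library and EtOH replicate 2 the lowest. The log2 fold change was -0.059 (SE 0.28, 95% interval -0.69 to 0.57, edgeR adjusted p = 0.974). The interval spans ratios between 0.620 and 1.49, which is the precision these libraries gave. Without EtOH replicate 1 the sign turned, with a log2 fold change of 0.20.

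*ABCC2* was at 1.12, 1.19 and 1.52 CPM in EtOH replicates 1, 2 and 3 and at 1.38, 1.02 and 0.805 CPM in Tet replicates 1, 2 and 3, from between 32 and 46 counts in a library. The groups overlapped, and the log2 fold change was -0.26 (SE 0.36, 95% interval -1.09 to 0.57, edgeR adjusted p = 0.873).

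*ABCG2* and *ABCC3* failed the filter and were not tested. *ABCG2* had 8, 12 and 9 counts in EtOH replicates 1, 2 and 3 and 6, 8 and 15 counts in Tet replicates 1, 2 and 3. Exact 95% binomial intervals of its share, which cover counting error only, ran from 0.0788 to 0.728 CPM, unnormalised, over the 6 libraries and overlapped one another. A difference was not detected, and such overlap does not exclude a difference between the labels. *ABCC3* had 18 and 11 counts in EtOH replicates 1 and 3 and 0 counts in EtOH replicate 2 and in all 3 libraries labelled Tet. In the libraries at 0, the exact 95% intervals reached up to between 0.0911 and 0.132 CPM, under the lower interval bounds of 0.313 and 0.188 CPM in EtOH replicates 1 and 3. Summed over libraries, *ABCC3* in EtOH was at 11.1 times the level of 3 counts over the whole Tet group. That level is lower than a floor of 3 counts in each library, and the ratio leaves out the spread between libraries. EtOH replicate 2 was at 0 like the Tet libraries. The ratio was 6.66 without EtOH replicate 1, which held 18 of the 29 counts, 7.18 without Tet replicate 2 and 6.82 without Tet replicate 3. With no filter, the edgeR adjusted p was 0.0947 for *ABCC3* and 0.949 for *ABCG2*.

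**Figure D4:**
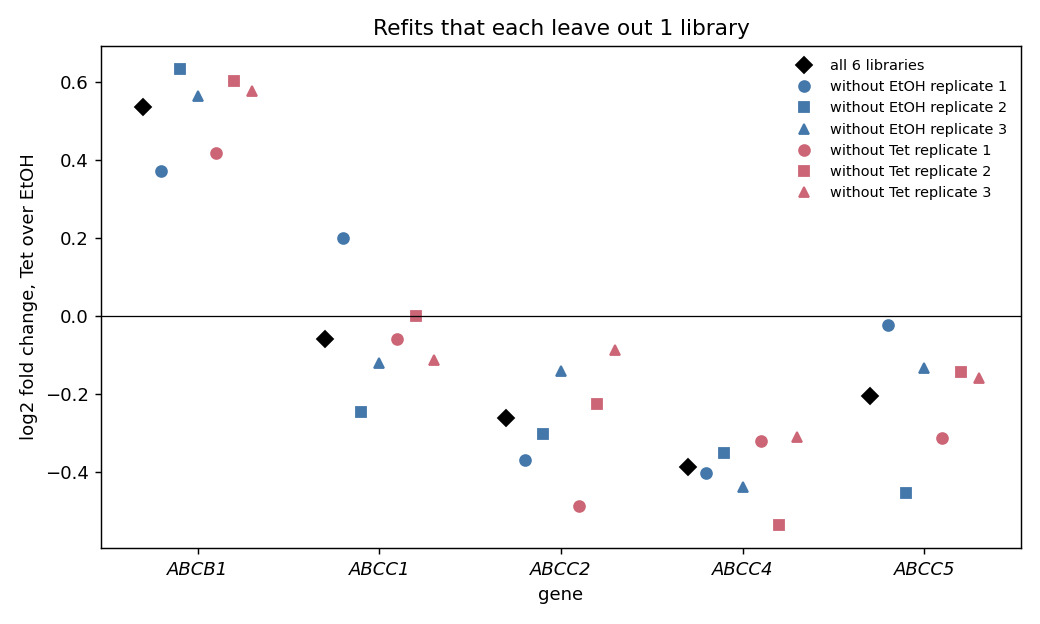
Log2 fold change of Tet over EtOH (vertical axis) for the 5 transporters tested (horizontal axis), with all 6 libraries in black and with 1 library left out in colour. *ABCB1* stays between 0.37 and 0.63 and *ABCC4* between -0.54 and -0.31, while *ABCC1* ranges from -0.25 to 0.20 around 0.

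The rest of the ABC family was examined as the background of the 7. Of the 41 other genes, 27 were tested, and 0 passed the threshold in edgeR. Before adjustment 3 of the 27 had p under 0.05, with 2 higher and 1 lower in Tet, beside 10.8% of all genes tested. Of their log2 fold changes, 15 of 27 were above 0 (median 0.091), beside 49.3% of all genes. In subfamily A, whose members mostly move lipids, 8 of 9 values were above 0, beside 49.3% of all genes. The median log2 fold change was 0.68, the value of *ABCA7*, which averaged 0.44 CPM in EtOH and 0.71 CPM in Tet (edgeR adjusted p = 0.82). For *ABCA2*, *ABCA3* and *ABCA7*, Tet replicate 3 was the highest library. Only 1 of the 9 subfamily A genes tested had an unadjusted p under 0.05 in edgeR, beside 10.8% of all genes tested. Groups that did not overlap were found for 2 of the 9, both higher in Tet, beside 9.20% of all genes in that direction. *ABCA9* was at 2.23, 4.98 and 3.11 CPM in EtOH replicates 1, 2 and 3 and at 7.66, 11.5 and 6.75 CPM in Tet replicates 1, 2 and 3 (log2 fold change 1.33, SE 0.35, edgeR adjusted p = 0.198). *ABCA2* had the same log2 fold change of 1.33 at under 1.5 CPM, with overlapping groups.

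*ABCC8*, the sulfonylurea receptor that regulates potassium channels, had the lowest unadjusted p of the other C subfamily genes, at 2.07, 1.73 and 2.71 CPM in EtOH and 3.44, 5.95 and 5.29 CPM in Tet replicates 1, 2 and 3 (log2 fold change 1.17, SE 0.31, edgeR adjusted p = 0.205). *ABCC10*, which encodes the drug exporter MRP7, was at 0.22 (edgeR adjusted p = 0.858). *ABCD2*, a peroxisomal transporter of very long-chain fatty acids, was at 30.5, 21.4 and 30.2 CPM in EtOH and 16.5, 16.5 and 16.3 CPM in Tet replicates 1, 2 and 3 (log2 fold change -0.74, SE 0.19, edgeR adjusted p = 0.193), and *ABCD4* was at 0.19. Of the 27 other family genes tested, 3 had separate groups higher in Tet and 2 lower, beside 9.20% and 8.28% of all genes. The 3 of them named for low unadjusted p, *ABCA9*, *ABCC8* and *ABCD2*, had larger absolute log2 fold changes than any of the 5 drug transporters. *ABCA12*, also higher in Tet without overlap but not chosen by its p, was at 0.17 (edgeR adjusted p = 0.784), smaller than *ABCB1* and *ABCC4* in size.

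The mitochondrial and lysosomal *ABCB6* was at 0.42, and *ABCE1*, *ABCF2* and *ABCG8* were at -0.52, -0.27 and -1.01 on the log2 scale, none past the threshold in edgeR (adjusted p between 0.473 and 0.769). *ABCB4*, the phospholipid exporter next to *ABCB1* on chromosome 7 and its closest relative, was at 0.591 CPM in EtOH and 0.494 CPM in Tet on average (log2 fold change -0.24, edgeR adjusted p = 0.930). *RUNDC3B*, whose gene overlaps the *ABCB1* locus on the other strand and which was looked up after its values were seen, was at 18.2 and 20.5 CPM (log2 fold change 0.17, edgeR adjusted p = 0.896). *ABCC6*, the neighbour and near relative of *ABCC1*, had 10 counts in all and was not tested.

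**Figure D5:**
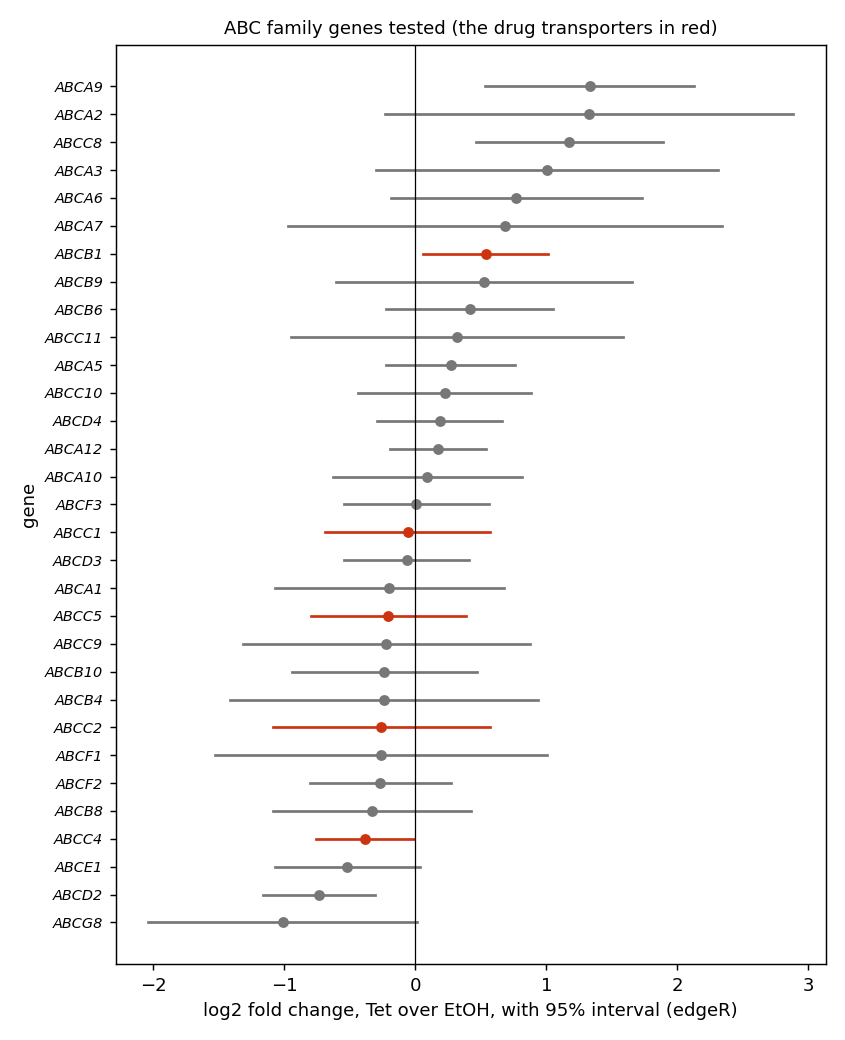
Log2 fold change of Tet over EtOH with its 95% interval from edgeR (horizontal axis) for 31 of the 32 ABC family genes tested (vertical axis, ordered by value), drug transporters in red. The red intervals of *ABCB1* (0.057 to 1.01) and *ABCC4* (-0.76 to -0.015) lie on either side of 0, and those of *ABCC1*, *ABCC2* and *ABCC5* include it.

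Genes that act with the exporters were counted from lists of drug carriers outside the ABC family, conjugating enzymes, regulators and partners. Most of these carriers bring drugs into cells, but *SLC47A1* and *SLC47A2* move them out. Of 25 carrier genes 13 were tested, with 0 past the threshold in edgeR. *SLC47A2* (log2 fold change 1.6, edgeR adjusted p = 0.433), at under 0.5 CPM in every library, and *SLCO3A1* (0.68, edgeR adjusted p = 0.476) had the lowest unadjusted p-values among them. *SLC47A1* averaged 6.3 CPM in EtOH and 3.7 CPM in Tet, with overlapping groups (log2 fold change -0.75, edgeR adjusted p = 0.596). The glutathione list supplies the conjugates that MRP proteins export, and of 28 genes found 20 were tested, 0 past the threshold. In that list 4 genes had an unadjusted p under 0.05, all lower in Tet, beside 4.94% of all genes in that direction. *MGST1*, a microsomal glutathione transferase, was at 36.2, 84.7 and 38.3 CPM in EtOH and 17.4, 23.3 and 17.2 CPM in Tet replicates 1, 2 and 3 (log2 fold change -1.46, SE 0.34, edgeR adjusted p = 0.145). *GSTM3*, a cytosolic transferase, was at -0.64 (edgeR adjusted p = 0.384).

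Of 24 phase I, glucuronidation and sulfation genes, 11 were tested and 0 passed the threshold in edgeR. *CYP3A4*, the main drug-oxidising cytochrome of liver, and its near copy *CYP3A7* were at log2 fold changes of -1.72 and -0.85 (edgeR adjusted p = 0.270 and 0.433), at under 3.2 CPM in every library, and reads of such close copies cannot be assigned with certainty. Of 33 regulators, 29 were tested, 0 passed the threshold and the median log2 fold change was -0.015. *SP1*, which binds GC boxes, was at -0.33 (edgeR adjusted p = 0.440), and *FOXO3*, a transcription factor under insulin signalling, was at 0.38 (edgeR adjusted p = 0.477). *NR1I2*, which encodes the pregnane X receptor, the drug sensor that induces *ABCB1* in liver and gut, had 24 counts in all and was not tested. Of 12 partner and traffic genes 9 were tested and 0 passed the threshold, with *PDZK1*, a scaffold of membrane transporters, at -0.56 and *EZR*, which ties membrane proteins to actin, at 0.63 (edgeR adjusted p = 0.277 and 0.332).

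Markers of cell state were compared in the same libraries. Of 12 noradrenergic neuroblastoma markers 10 were tested, 8 had all Tet libraries above all EtOH libraries, beside 9.20% of all genes, and their summed level ran from 544.5 to 597.6 TPM in EtOH and from 642.8 to 718.1 TPM in Tet. *DDC*, which encodes the enzyme that makes dopamine from L-DOPA, rose from 0.167, 0.361 and 0.198 CPM in EtOH to 3.23, 2.93 and 2.37 CPM in Tet replicates 1, 2 and 3 (log2 fold change 3.55, SE 0.41, edgeR adjusted p = 0.0280), and was the 1 marker past the threshold. The neuronal transcription factor *ISL1* was at 1.18 (edgeR adjusted p = 0.142). Of the defining enzymes, *TH* had 1 count in all and *DBH* 36 counts. The 13 mesenchymal markers summed to between 186.6 and 342.2 TPM in EtOH and between 189.7 and 320.1 TPM in Tet, with *COL3A1* at 1.03 and *PRRX1* at -1.02 on the log2 scale (edgeR adjusted p = 0.143 and 0.317) and *COL1A2* at 0. Of the 11 tested, 4 log2 fold changes were above 0 and 7 below (median -0.39), beside 49.3% and 50.7% of all genes. Groups did not overlap for 1 gene higher and 3 lower in Tet, beside 9.20% and 8.28% of all genes.

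The 7 Schwann and glial markers summed to between 3.36 and 4.10 TPM in EtOH and between 1.93 and 4.38 TPM in Tet, with *S100B* at 0 and *PMP22* at -0.94 on the log2 scale (edgeR adjusted p = 0.377). The 11 blood and endothelial markers summed to under 2.3 TPM in every library, with *CD3E*, *HBA1*, *HBB* and *VWF* at 0 and *PTPRC* at -0.52 (edgeR adjusted p = 0.809). The part of these markers in the *ABCB1* and *ABCC4* values was not tested. In bulk RNA, more cells of one kind and more RNA per cell cannot be told apart.

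Genes whose pattern over the 6 libraries was most like that of a transporter were found by the root mean square difference of centred log2 CPM, among genes with a symbol and a mean of at least 5 CPM. For *ABCB1* these were *DTD1* (difference 0.103) and *KIF5C-AS1* (0.105), where the median candidate was at 0.409. For *ABCC4* they were *NFIB* (0.0362) and *DOK6* (0.0453), for *ABCC5* *UBE2D4* (0.0239) and *COPG2* (0.0469), for *ABCC1* *BSDC1* (0.0434) and *ZNF70* (0.0735), and for *ABCC2* ENSG00000279278 (0.101) and *SPATA5L1* (0.112). These are descriptions over 6 libraries that share their depth and scaling, with 10069 or 10070 candidates each.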

How the data were processed

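RNA was sequenced from 6 samples, 3 libraries labelled EtOH and 3 labelled Tet. The authors deposited estimated counts for each gene, many of them fractions, made, per the file headers, by trimming reads, aligning them with STAR, keeping unique alignments and counting exons with featureCounts 1.6.4, without strand and with shared pairs divided. The submitters' processing notes name STAR 2.7.1a, featureCounts 1.5.1 and GRCh38, and the study's methods describe other counting options. Reads of near-identical copies were lost or split. The 92 spike-in rows had a largest count of 0 and were left out. Symbols were found for 60437 of 60651 identifiers, and coordinates of the 7 members equalled those of GENCODE release 44.

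Counts, assumed whole in the planned test, were rounded, filtered with filterByExpr, scaled by TMM and tested with edgeR 4.0.16 in R 4.3.3 without a replicate block. SE is the log2 fold change over the square root of F, and 95% intervals use the total degrees of freedom. CPM is TMM-normalised. TPM uses the exon length of the files. Alternatives were RLE and upper quartile scaling, no filter, at least 10 counts in every library, DESeq2 1.42.0, limma-voom (limma 3.58.1), removal of mitochondrial genes, a replicate block and leaving out libraries. The edgeR step was tested on simulated counts. The study's methods describe in vitro experiments as done in 3 biological replicates unless stated otherwise. The labels of these libraries do not say whether their cultures were separate, and if they were not, p-values measure a spread that may be technical. The depth of each library limits genes under about 10 counts. The members and lists were chosen with earlier results of these data known. Described by name were *MYCN*, the members, their nearest relatives, list genes past the threshold, the 2 with the lowest unadjusted p of each list, and the 2 genes most alike each member, except 2 list genes that are not reported here. Genes named outside this rule (*TAP1* and others listed at 0, *ABCA3*, *ABCA5*, *ABCA7*, *ABCA12*, *ABCD3*, *SLC47A1*, *NR1I2*, *TH*, *DBH*, *RUNDC3B*) were chosen after their values were seen.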

Additional observations from a re-analysis of the deposited data

How the results depend on the processing

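Each of the 5 tested transporters was refitted under 14 other settings. *ABCB1*, *ABCC2*, *ABCC4* and *ABCC5* kept their direction in all 14 and stayed short of the threshold, with edgeR, DESeq2 or limma-voom adjusted p-values between 0.133 and 0.996. *ABCC1* did so in 13 and turned to a log2 fold change of 0.20 without EtOH replicate 1. In the fits that left out 1 library, log2 fold changes ranged from 0.37 to 0.63 for *ABCB1*, from -0.25 to 0.20 for *ABCC1*, from -0.49 to -0.088 for *ABCC2*, from -0.54 to -0.31 for *ABCC4* and from -0.45 to -0.023 for *ABCC5*. Without EtOH replicate 2 and Tet replicate 2, an alternative added after seeing the data, *ABCC4* passed the threshold at -0.51 (edgeR adjusted p = 0.0465) and the others did not. Its cause was not tested. The rank of the 7 genes by level was the same by RPKM. RPKM divides the same counts by the same exon lengths, so this outcome was nearly fixed in advance.

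Same-numbered libraries had correlations of deviations from their group means of 0.0603, 0.510 and 0.219, all positive. The main fit treated the libraries as unpaired, as was planned, because the labels named no factor other than the group. Tet replicate 1 correlated better with EtOH replicate 3 (0.155), and EtOH replicate 1 with Tet replicate 3 (0.379). The remaining pairs of different number were negative, between -0.452 and -0.128. These values did not settle whether libraries of the same number had been prepared together. With the number as a replicate block, log2 fold changes were 0.54 for *ABCB1*, -0.40 for *ABCC4*, -0.15 for *ABCC5*, -0.28 for *ABCC2* and -0.013 for *ABCC1*, and the block changed no call of a transporter (edgeR adjusted p between 0.149 and 0.990).

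Over all genes, 33 were higher and 20 lower past the threshold. With RLE scaling 13 were lower. DESeq2 gave 282 higher and 203 lower, the fit without a filter gave 185 and 117, and the replicate block gave 421 and 254. Leaving out 1 library gave from 0 to 361 higher and from 0 to 331 lower, with the highest counts without EtOH replicate 2 and the counts of 0 and 0 without Tet replicate 1 or Tet replicate 3, where 1865 and 2067 genes had an unadjusted p under 0.05. Leaving out EtOH replicate 2 and Tet replicate 2 gave 487 higher and 387 lower. The causes were not tested.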
